A study of Mus musculus with 14 samples.

Results

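Mouse bone marrow derived macrophages were exposed to Poly I:C for 24 h, washed, and then given either LPS or PBS, and polyadenylated RNA was sequenced 6 h after that second stimulus. The comparison described here sets the libraries that received Poly I:C and then LPS for 6 h (the LPS libraries, n = 2) against those that received Poly I:C and then PBS for 6 h (the PBS libraries, n = 2). These 4 libraries were chosen by their labels from 14 in the series. 4 other groups serve for the tests of differences: Poly I:C then LPS for 2 h (n = 2), Poly I:C then PBS for 2 h (n = 2), PBS then LPS for 6 h (n = 2) and PBS then PBS for 6 h (n = 1). All cells came from the marrow of male C57Bl6/J mice aged 6 to 12 weeks and were grown in L929-conditioned medium as a source of CSF-1. Poly I:C was used at 100 ng/mL, so both compared groups had already met a TLR3 ligand, and the LPS dose of the second stimulus is not given in the sources used here. Nothing in the labels says whether the replicates of a group came from separate animals or cultures, so the p-values speak to the spread between the sequenced samples alone, and that spread may be technical.

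LPS is a cell wall component of Gram-negative bacteria that is sensed by TLR4 with its co-receptors CD14 and MD-2. TLR4 signals through the adaptor MyD88 to NF-kB and MAP kinases, which drive cytokine and chemokine genes, and through the adaptor TRIF to IRF3 and interferon beta. Poly I:C imitates viral double-stranded RNA and is sensed by TLR3, which uses TRIF, and by the cytosolic sensor MDA5. Secreted interferon then switches on antiviral genes. In macrophages this response comes with a shift in metabolism and with loss of part of the resting scavenger programme.

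Expression is given in FPKM, fragment counts scaled by transcript length and library size, as the authors deposited it. Replicate libraries correlated at r = 0.988 in the LPS group and r = 0.98 in the PBS group across tested entries on the log2(FPKM + 1) scale; entries are not independent replicates. The table sums to 669511 and 635060 FPKM in the LPS libraries and to 492257 and 516817 FPKM in the PBS libraries. The 10 macrophage markers, among them Cd68, Csf1r and Emr1, were all at 1 FPKM or more in the 4 libraries, with summed levels of 5854 to 5942 FPKM in the LPS libraries and 5983 to 6262 FPKM in the PBS libraries. Of these 10 markers 3 were called higher with LPS and 4 lower: Cd14 had 1212 and 1142 FPKM in the LPS libraries against 69.4 and 87.7 FPKM in the PBS libraries, while Csf1r had 112 and 129 FPKM in the LPS libraries against 183 and 208 FPKM in the PBS libraries. B cell markers summed to 0.228 to 0.641 FPKM in the LPS libraries and 1.26 to 2.20 FPKM in the PBS libraries. T and NK cell markers summed to 2.81 to 4.44 FPKM in the LPS libraries and 4.66 FPKM in each PBS library, all of it Cd4. Stromal markers summed to 63.0 to 83.2 FPKM in the LPS libraries and 40.4 to 70.2 FPKM in the PBS libraries. In such bulk RNA a lower level can mean fewer cells of a kind or less RNA per cell, and these cannot be told apart. Annotations and coordinates refer to GRCm38, and 3744 tested entries share their assembled locus with another entry, so reads of overlapping genes may have been divided between them.

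LPS given for 6 h to Poly I:C-primed cells changed the level of a large part of the transcriptome. Of 11977 tested entries, 2595 (21.7%) were higher and 2660 (22.2%) lower in the LPS libraries, at a limma adjusted p under 0.05. Counts of list members given below for this comparison are to be read beside these shares. An entry was tested if it had 1 FPKM or more in 2 or more of the 14 libraries. Genes silent without LPS can thus pass through the LPS libraries alone, which favours rising members in such counts. The increases were the larger ones: 1304 entries rose at least 2-fold and 173 at least 8-fold, while 1042 fell at least 2-fold and 41 at least 8-fold. The median log2 fold change over all tested entries was -0.026. In the data themselves, 4284 entries (35.8%) had both LPS libraries above both PBS libraries, and 4636 (38.7%) had both below. Later statements that the groups separated or did not overlap are descriptions to be read beside these shares. The largest increases and decreases were chosen among entries whose groups did not overlap. Fold changes below are differences of log2(FPKM + 1) with their standard error (SE) from limma, a scale that understates the change of weakly expressed genes.

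The 3 largest increases among the named genes were in cytokines. Il1b (interleukin 1 beta), the pyrogenic cytokine that is made as an inactive precursor, had 2824 and 2533 FPKM in the LPS libraries, against 4.99 and 3.28 FPKM in the PBS libraries (log2 fold change 9.05 ± 0.35, limma adjusted p = 7.48e-08). Il6, a cytokine of fever and of the hepatic acute-phase response, had 389.9 and 378 FPKM in the LPS libraries, against 0.390 and 0 FPKM in the PBS libraries (log2 fold change 8.35 ± 0.46, limma adjusted p = 3.67e-07). Il1a, the related interleukin 1 alpha, had 1550.4 and 1384 FPKM in the LPS libraries, against 7.41 and 3.60 FPKM in the PBS libraries (log2 fold change 7.88 ± 0.56, limma adjusted p = 1.82e-06). For each of these 3 genes the PBS libraries sat at a few FPKM or less and neither overlapped the LPS libraries. Tnf, the early cytokine that acts on endothelium, was already present without LPS: it had 986 and 916 FPKM in the LPS libraries, against 53.8 and 35.02 FPKM in the PBS libraries (log2 fold change 4.42 ± 0.48, limma adjusted p = 3.55e-05). Il10, the main anti-inflammatory cytokine of macrophages, rose together with the inflammatory ones, with 76.5 and 62.1 FPKM in the LPS libraries, against 0.361 and 0.279 FPKM in the PBS libraries (log2 fold change 5.73 ± 0.31, limma adjusted p = 3.16e-07). Il12b, the shared p40 subunit of IL-12 and IL-23, had 57.6 and 60.7 FPKM in the LPS libraries, against 0.0869 and 0.456 FPKM in the PBS libraries (log2 fold change 5.58 ± 0.25, limma adjusted p = 1.35e-07). The 4 libraries separated into LPS high and PBS low for all 6 of these cytokines, beside 35.8% of all tested entries.

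Of the 28 cytokines listed, 25 passed the filter on low values, 23 rose and 1 fell, with a median log2 fold change of 3.35. Il23a, the p19 subunit of IL-23, rose by 3.71 ± 0.18, Il27 by 5.84 ± 0.37 and Ebi3, which pairs with IL-27 p28, by 3.78 ± 0.20 on the log2 scale. Il18, the interleukin 1 relative that induces interferon gamma, rose less, with 45.8 and 38.4 FPKM in the LPS libraries, against 14.6 and 12.4 FPKM in the PBS libraries (log2 fold change 1.57 ± 0.15, limma adjusted p = 1.51e-05). Il1rn, the secreted antagonist of interleukin 1, was abundant in both groups, with 2527 and 2018 FPKM in the LPS libraries, against 311 and 279 FPKM in the PBS libraries (log2 fold change 2.93 ± 0.15, limma adjusted p = 2.11e-07). Tgfb1, a cytokine that restrains inflammation, was the member that fell, with 47.7 and 44.5 FPKM in the LPS libraries, against 78.5 and 90.1 FPKM in the PBS libraries (log2 fold change -0.85 ± 0.14, limma adjusted p = 0.000624).

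The neutrophil-attracting chemokines Cxcl1, Cxcl2 and Cxcl3, ligands of CXCR2, lie in 1 cluster on chromosome 5 and rose together. Cxcl1 had 149 and 136 FPKM in the LPS libraries, against 0.910 and 0.241 FPKM in the PBS libraries (log2 fold change 6.54 ± 0.33, limma adjusted p = 2.2e-07). Cxcl2 had 1053 and 1039 FPKM in the LPS libraries, against 9.80 and 2.43 FPKM in the PBS libraries (log2 fold change 7.43 ± 0.72, limma adjusted p = 1.7e-05). Cxcl3 had 203 and 255 FPKM in the LPS libraries, against 1.22 and 0.225 FPKM in the PBS libraries (log2 fold change 7.12 ± 0.36, limma adjusted p = 2.11e-07). All 3 were below 10 FPKM in the PBS libraries, where the second replicate was the lower one each time. Csf2 (GM-CSF) had 12.6 and 14.2 FPKM in the LPS libraries, against 0.321 and 0 FPKM in the PBS libraries (log2 fold change 3.65 ± 0.29, limma adjusted p = 4.5e-06). Csf3 (G-CSF) had 2.20 and 0.953 FPKM in the LPS libraries and was listed at 0 in both PBS libraries. Of 7 listed neutrophil chemokines and colony-stimulating factors, 6 were tested and 5 rose.

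The promoters of Il6 and of the 3 clustered chemokines are shown because they are the genes among the 10 largest increases whose window (250 bases before to 50 bases after the start) held a match to the NF-kB consensus. Sequences are from RefSeq, build GRCm38.p6, plus strand, at chr5:30012864-30013163 for Il6, chr5:90890995-90891294 for Cxcl1, chr5:90903649-90903948 for Cxcl2 and chr5:90785851-90786150 for Cxcl3. Capitals mark matches to the NF-kB consensus and, in Il6, also an AP-1 motif (TGANTCA).
Il6: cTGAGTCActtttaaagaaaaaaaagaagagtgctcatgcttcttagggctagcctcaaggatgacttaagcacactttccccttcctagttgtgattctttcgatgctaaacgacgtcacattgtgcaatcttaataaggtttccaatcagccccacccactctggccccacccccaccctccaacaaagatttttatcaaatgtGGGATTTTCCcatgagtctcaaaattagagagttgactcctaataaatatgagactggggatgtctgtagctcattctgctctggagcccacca
Cxcl1: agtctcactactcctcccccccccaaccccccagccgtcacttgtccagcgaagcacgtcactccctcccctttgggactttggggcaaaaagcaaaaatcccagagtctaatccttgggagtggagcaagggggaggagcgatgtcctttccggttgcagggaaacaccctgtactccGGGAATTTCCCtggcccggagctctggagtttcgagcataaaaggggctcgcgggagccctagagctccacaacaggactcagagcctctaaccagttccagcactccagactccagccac
Cxcl2: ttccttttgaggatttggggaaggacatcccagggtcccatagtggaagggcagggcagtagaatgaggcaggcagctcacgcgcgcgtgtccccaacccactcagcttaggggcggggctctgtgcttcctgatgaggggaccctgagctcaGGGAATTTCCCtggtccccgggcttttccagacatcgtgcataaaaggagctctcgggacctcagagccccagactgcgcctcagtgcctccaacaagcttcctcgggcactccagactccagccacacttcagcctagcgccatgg
Cxcl3: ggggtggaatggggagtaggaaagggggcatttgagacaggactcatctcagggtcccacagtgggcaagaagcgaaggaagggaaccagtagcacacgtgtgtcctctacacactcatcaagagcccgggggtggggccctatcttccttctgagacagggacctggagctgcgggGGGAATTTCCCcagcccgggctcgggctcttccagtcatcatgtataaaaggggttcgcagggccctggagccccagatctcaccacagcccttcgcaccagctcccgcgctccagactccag

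In Cxcl1, Cxcl2 and Cxcl3 the capitals spell the same run, GGGAATTTCCC, at bases -71 to -61, -97 to -87 and -73 to -63 from the annotated start. Each run holds 2 overlapping matches, GGGAATTTCC read on the plus strand and GGAATTTCCC on the opposite one. In Il6 the match lies at -44 to -35, with the AP-1 motif at -249 to -243. On both strands the NF-kB consensus was found in 4 of the windows of the 10 largest increases, in 0 of the 10 largest decreases and in 4.51% of all 32851 windows. AP-1 motifs were found in 2 windows of the increases, in 1 of the decreases and in 7.81% of all windows. The cyclic AMP response element TGACGTCA was in 0 windows of either set and in 1.79% of all. Among the 7735 windows of tested entries naming 1 gene, the NF-kB consensus was in 5.12%, AP-1 motifs in 5.20% and TGACGTCA in 3.39%. A match is a description of the letters and not evidence of binding.

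**Figure D1:**
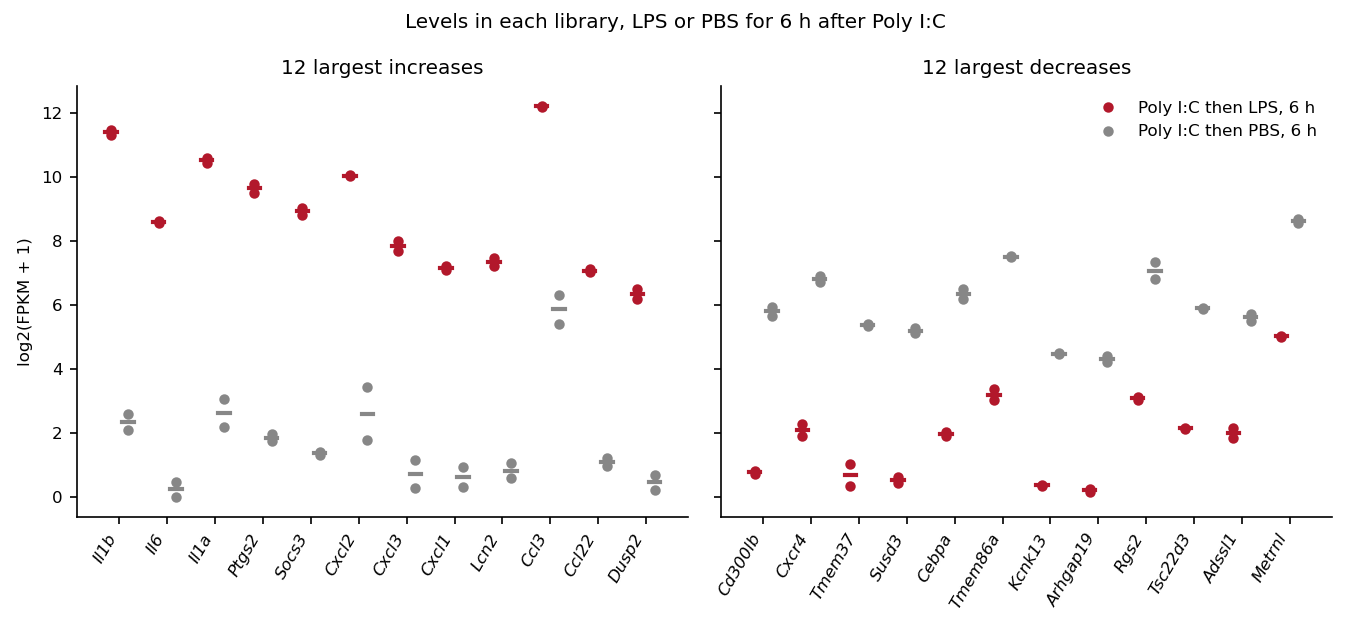
Level, as log2(FPKM + 1), in each of the 4 libraries for the 12 named genes with the largest increases and the 12 with the largest decreases after LPS in Poly I:C-primed cells at 6 h; each point is 1 library and each bar the mean of the 2 points. Il1b stands at 2824 and 2533 FPKM in the LPS libraries against 4.99 and 3.28 FPKM in the PBS libraries, and Cxcr4 at 2.77 and 3.88 FPKM in the LPS libraries against 104.2 and 117.7 FPKM in the PBS libraries.

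The other chemokines were a mixed group, in which several stood high without LPS. Ccl3, a CC chemokine that attracts monocytes and lymphocytes, had 4778 and 4634 FPKM in the LPS libraries, against 77.99 and 41.7 FPKM in the PBS libraries (log2 fold change 6.34 ± 0.47, limma adjusted p = 2.57e-06); the table also holds an entry naming Ccl3 and Ccl4 together, so its level is uncertain. Ccl22, a ligand of CCR4 on regulatory T cells, had 129.8 and 138 FPKM in the LPS libraries, against 1.34 and 0.945 FPKM in the PBS libraries (log2 fold change 5.98 ± 0.19, limma adjusted p = 2.53e-08). Both were low in each PBS library and high in each LPS library. Ccl5, which attracts T cells, was among the most abundant transcripts in every library, with 26675 and 25422 FPKM in the LPS libraries, against 16665 and 18263 FPKM in the PBS libraries, and its log2 fold change of 0.58 ± 0.25 (limma adjusted p = 0.0917) did not pass; it did when the libraries of 6 h were fitted alone (limma adjusted p = 0.0242). The monocyte chemokine Ccl2 had 607 and 576 FPKM in the LPS libraries, against 565 and 472 FPKM in the PBS libraries (log2 fold change 0.20 ± 0.17, limma adjusted p = 0.382). Of 12 tested members of 17 listed, 6 rose, and Cxcl14 alone fell (log2 fold change -1.93 ± 0.15, limma adjusted p = 4.05e-06).

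The interferon-induced chemokines, ligands of CXCR3 on T cells, split. Cxcl10 had 1859 and 1850.1 FPKM in the LPS libraries, against 183 and 137 FPKM in the PBS libraries (log2 fold change 3.54 ± 0.20, limma adjusted p = 4.41e-07). Cxcl11 rose by 2.51 ± 0.21 on the log2 scale. Cxcl9, whose main inducer is interferon gamma, had 52.6 and 52.1 FPKM in the LPS libraries, against 55.3 and 52.7 FPKM in the PBS libraries (log2 fold change -0.04 ± 0.24, limma adjusted p = 0.908), with both LPS libraries just below both PBS libraries.

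Chemotactic receptors moved in both directions: 5 of 12 tested rose and 7 fell. Cxcr4, C5ar1, C3ar1, Ccr1 and Cx3cr1 were among those that fell. Cxcr4, the receptor that retains leukocytes in marrow, had 2.77 and 3.88 FPKM in the LPS libraries, against 104 and 118 FPKM in the PBS libraries (log2 fold change -4.70 ± 0.20, limma adjusted p = 1.06e-07). The log2 fold change was -2.44 ± 0.13 for C5ar1, the C5a receptor, -1.14 ± 0.12 for C3ar1, the C3a receptor, and -1.52 ± 0.13 for Ccr1, a receptor of CC chemokines. Cx3cr1, the fractalkine receptor, had 0.0250 and 0.0522 FPKM in the LPS libraries, against 1.34 and 1.30 FPKM in the PBS libraries (log2 fold change -1.16 ± 0.23, limma adjusted p = 0.00225). The receptors that rose include Fpr1, the sensor of bacterial formyl peptides, with 90.2 and 89.7 FPKM in the LPS libraries, against 2.28 and 2.67 FPKM in the PBS libraries (log2 fold change 4.71 ± 0.17, limma adjusted p = 5.24e-08). Ccr7, which guides migration to lymph nodes, had 17.7 and 12.3 FPKM in the LPS libraries, against 0.0886 and 0.0367 FPKM in the PBS libraries (log2 fold change 3.89 ± 0.18, limma adjusted p = 1.47e-07). All these receptors had groups that did not overlap.

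Genes of the NF-kB pathway rose, inhibitors as well as subunits. Of 15 listed subunits, IkB proteins and kinases, 12 were tested and 10 rose (median 2.59). Nfkbia (IkB alpha), the inhibitor that NF-kB itself induces, had 841 and 777 FPKM in the LPS libraries, against 79.6 and 50.1 FPKM in the PBS libraries (log2 fold change 3.66 ± 0.42, limma adjusted p = 6.15e-05). Nfkbiz, a nuclear IkB protein needed for Il6 transcription in mouse macrophages, had 147 and 124 FPKM in the LPS libraries, against 7.20 and 5.72 FPKM in the PBS libraries (log2 fold change 4.19 ± 0.32, limma adjusted p = 3.08e-06). Nfkb1 (p105/p50) rose by 3.01 ± 0.12, Relb by 2.16 ± 0.19 and Rela (p65) by 1.09 ± 0.13 on the log2 scale. In each of these the LPS libraries lay above both PBS libraries.

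Negative regulators of Toll-like receptor signalling were a second group that mostly rose, 19 of 25 tested, with 3 falling. Socs3, the inhibitor of signalling by IL-6 family receptors, had 521 and 448 FPKM in the LPS libraries, against 1.67 and 1.49 FPKM in the PBS libraries (log2 fold change 7.55 ± 0.53, limma adjusted p = 1.7e-06). Tnfaip3 (A20), the ubiquitin-editing enzyme that limits NF-kB, had 370.0 and 318 FPKM in the LPS libraries, against 20.4 and 13.96 FPKM in the PBS libraries (log2 fold change 4.27 ± 0.42, limma adjusted p = 1.86e-05). Zc3h12a (Regnase-1), an endonuclease that degrades Il6 mRNA, rose by 3.83 ± 0.21, and Irak3 (IRAK-M), a kinase-dead inhibitor of IRAK signalling, by 2.37 ± 0.13. Inpp5d (SHIP-1), a lipid phosphatase that opposes PI3 kinase, was among those that fell, with 13.01 and 14.04 FPKM in the LPS libraries, against 49.6 and 58.6 FPKM in the PBS libraries (log2 fold change -1.92 ± 0.16, limma adjusted p = 7.07e-06). Nlrc3, an NLR protein described as a brake on TLR signalling, had 0.520 and 0.397 FPKM in the LPS libraries, against 3.54 and 3.83 FPKM in the PBS libraries (log2 fold change -1.68 ± 0.16, limma adjusted p = 1.27e-05). Both LPS libraries thus exceeded both PBS libraries for Socs3 and A20 and lay below them for Inpp5d and Nlrc3.

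Among MAP kinase phosphatases, Dusp2, a nuclear phosphatase of ERK and p38, had 88.4 and 71.8 FPKM in the LPS libraries, against 0.606 and 0.177 FPKM in the PBS libraries (log2 fold change 5.88 ± 0.31, limma adjusted p = 2.85e-07). Dusp1, the phosphatase that ends p38 and JNK signalling early in the response, had 109.7 and 77.8 FPKM in the LPS libraries, against 37.2 and 42.6 FPKM in the PBS libraries (log2 fold change 1.20 ± 0.19, limma adjusted p = 0.000626). Dusp6, specific for ERK, was lower, with 4.09 and 4.39 FPKM in the LPS libraries, against 19.2 and 22.9 FPKM in the PBS libraries (log2 fold change -2.07 ± 0.20, limma adjusted p = 1.51e-05). Of 10 tested, 7 rose and 2 fell, and without PBS replicate 2 only 4 rose.

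Transcription factors of the AP-1 family diverged at 6 h. Junb had 419.8 and 364 FPKM in the LPS libraries, against 97.3 and 86.3 FPKM in the PBS libraries (log2 fold change 2.08 ± 0.22, limma adjusted p = 3.16e-05). Batf, a partner of JUN proteins, had 179.7 and 181 FPKM in the LPS libraries, against 5.38 and 3.12 FPKM in the PBS libraries (log2 fold change 5.14 ± 0.25, limma adjusted p = 1.87e-07). Jun had 6.03 and 5.73 FPKM in the LPS libraries, against 31.7 and 29.2 FPKM in the PBS libraries (log2 fold change -2.19 ± 0.16, limma adjusted p = 2.22e-06). Fos had 8.23 and 6.12 FPKM in the LPS libraries, against 25.9 and 33.5 FPKM in the PBS libraries (log2 fold change -1.91 ± 0.26, limma adjusted p = 0.00018). Thus Junb and Batf were higher and Jun and Fos lower in both LPS libraries. Klf2, a factor that keeps myeloid cells quiescent, had a log2 fold change of -1.77 ± 0.22. Of 25 tested immediate-early genes, from the AP-1, EGR and NR4A families and others such as Myc, 16 rose and 4 fell. Atf3, another early repressor, had 144 and 140.0 FPKM in the LPS libraries, against 136 and 113 FPKM in the PBS libraries (log2 fold change 0.20 ± 0.12, limma adjusted p = 0.201).

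Interferon genes were already expressed without LPS after Poly I:C, and most stood higher with it. Ifnb1 (interferon beta) had 32.04 and 29.00 FPKM in the LPS libraries, against 7.82 and 6.31 FPKM in the PBS libraries (log2 fold change 1.97 ± 0.36, limma adjusted p = 0.0014). Of 40 listed interferon-stimulated genes 29 were tested and 26 rose, with a median log2 fold change of 1.00 beside -0.026 over all tested entries. Isg15, a ubiquitin-like modifier, had 3394 and 3442 FPKM in the LPS libraries, against 1119.6 and 937 FPKM in the PBS libraries (log2 fold change 1.74 ± 0.23, limma adjusted p = 0.00016). Rsad2 (viperin), an enzyme that makes a chain-terminating nucleotide against viruses, had 1149 and 977 FPKM in the LPS libraries, against 341 and 289 FPKM in the PBS libraries (log2 fold change 1.75 ± 0.15, limma adjusted p = 7.6e-06). Ifit1, which binds foreign RNA, and Mx1, an antiviral GTPase, rose by 1.67 ± 0.16 and 1.57 ± 0.23 on the log2 scale. The PBS libraries already held over 100 FPKM of each of these transcripts, and the LPS libraries lay above them in each case. The 3 members that did not pass were Irf7, Bst2 and Oas2. Irf7, the amplifying transcription factor, had 2149.5 and 2007 FPKM in the LPS libraries, against 1760.3 and 1816 FPKM in the PBS libraries (log2 fold change 0.22 ± 0.25, limma adjusted p = 0.527). Bst2, which tethers budding virions, had 2585 and 2726 FPKM in the LPS libraries, against 2696 and 2451 FPKM in the PBS libraries (log2 fold change 0.05 ± 0.21, limma adjusted p = 0.886), and its libraries overlapped between the groups. Oas2, which makes the activator of RNase L, had 108 and 69.5 FPKM in the LPS libraries, against 54.4 and 52.1 FPKM in the PBS libraries (log2 fold change 0.70 ± 0.27, limma adjusted p = 0.064). Without LPS replicate 2 Oas2 passed as well, with a log2 fold change of 1.012. Some of the 26 calls were in turn lost when 1 library was left out. Ifi35 and Xaf1 lost theirs without any 1 of the 4 libraries, with log2 fold changes of 0.795 to 0.872 and 0.621 to 0.752.

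The promoter of Rsad2 is shown as an example of the interferon response element in these genes. It lies at chr12:26456403-26456702 on the minus strand (RefSeq, GRCm38.p6), and capitals mark the ISRE core (GAAA, any 2 bases, then GAAA), read here on the opposite strand, at -120 to -111 and an AP-1 motif at -87 to -81.
Rsad2: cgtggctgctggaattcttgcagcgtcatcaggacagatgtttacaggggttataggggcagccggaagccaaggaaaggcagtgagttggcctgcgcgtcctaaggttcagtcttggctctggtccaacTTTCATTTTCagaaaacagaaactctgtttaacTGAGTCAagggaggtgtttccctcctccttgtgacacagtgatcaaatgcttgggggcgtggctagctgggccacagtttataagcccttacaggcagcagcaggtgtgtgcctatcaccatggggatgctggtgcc

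That core was present in 9 of the 20 interferon-stimulated genes with a window, of 29 looked up, and in 3.44% of all windows. In windows of tested entries naming 1 gene its share was 3.22%.

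Guanylate-binding proteins, which coat bacteria and vacuoles, rose in 6 of 7 tested members together with the related IRGs. Gbp5, which promotes NLRP3 assembly in mice, had 697 and 644 FPKM in the LPS libraries, against 32.2 and 26.1 FPKM in the PBS libraries (log2 fold change 4.48 ± 0.15, limma adjusted p = 3.72e-08). Gbp2 had 968 and 864 FPKM in the LPS libraries, against 334 and 314 FPKM in the PBS libraries (log2 fold change 1.49 ± 0.17, limma adjusted p = 5.28e-05). Members of this family are close copies of each other, so reads may be split among them. For antigen presentation by MHC class I, 10 of 13 tested genes rose, but only 5 or 6 did when any 1 of the 4 libraries was left out. Nlrc5, the class I transactivator, had 72.9 and 52.4 FPKM in the LPS libraries, against 18.8 and 14.2 FPKM in the PBS libraries (log2 fold change 1.86 ± 0.22, limma adjusted p = 7.58e-05). Tap2, a subunit of the peptide transporter, rose by 1.25 ± 0.18. The heavy chain H2-K1 had 6336 and 6456 FPKM in the LPS libraries, against 5054 and 5047 FPKM in the PBS libraries (log2 fold change 0.34 ± 0.21, limma adjusted p = 0.224), and passed when the 4 libraries were fitted alone (limma adjusted p = 0.0464). The light chain B2m had 11797 and 12106 FPKM in the LPS libraries, against 9777 and 9844 FPKM in the PBS libraries (log2 fold change 0.28 ± 0.18, limma adjusted p = 0.233). These 2 highest class I transcripts thus did not pass while their transactivator did. Of the MHC class II genes, 4 of 8 tested rose: Ciita, their transactivator, had 2.72 and 2.53 FPKM in the LPS libraries, against 0.195 and 0.169 FPKM in the PBS libraries (log2 fold change 1.62 ± 0.15, limma adjusted p = 1.24e-05). H2-Ab1 rose by 1.11 ± 0.12. H2-Aa, a class II alpha chain, had 169.5 and 179 FPKM in the LPS libraries, against 109.7 and 93.4 FPKM in the PBS libraries (log2 fold change 0.78 ± 0.18, limma adjusted p = 0.00604), and without PBS replicate 2 it did not pass (0.662, limma adjusted p = 0.0528).

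Effector enzymes of inflamed macrophages were among the large increases, and enzymes of other eicosanoids among the decreases. Ptgs2 (COX-2), the inducible enzyme of prostaglandin synthesis, had 876 and 728 FPKM in the LPS libraries, against 2.90 and 2.36 FPKM in the PBS libraries (log2 fold change 7.79 ± 0.35, limma adjusted p = 1.35e-07); its assembled locus also holds an antisense transcript. Nos2, the inducible nitric oxide synthase, had 299 and 234 FPKM in the LPS libraries, against 5.46 and 4.23 FPKM in the PBS libraries (log2 fold change 5.51 ± 0.29, limma adjusted p = 2.94e-07). Irg1, which makes itaconate from an intermediate of the citric acid cycle, had 1435 and 1303 FPKM in the LPS libraries, against 164 and 131 FPKM in the PBS libraries (log2 fold change 3.21 ± 0.17, limma adjusted p = 3.26e-07). All 3 were separated between the groups, with Irg1 the one that already exceeded 100 FPKM in the PBS libraries. Ptges, the terminal synthase of prostaglandin E2, rose by 3.35 ± 0.16, Slc7a2, an arginine importer, by 4.35 ± 0.18 and Gch1, which starts synthesis of the Nos2 cofactor tetrahydrobiopterin, by 2.18 ± 0.15. Tbxas1 (thromboxane synthase) went the other way, with 15.8 and 15.5 FPKM in the LPS libraries, against 35.4 and 38.1 FPKM in the PBS libraries (log2 fold change -1.18 ± 0.11, limma adjusted p = 1.5e-05), as did the prostaglandin E2 receptor Ptger2 (log2 fold change -1.20 ± 0.17, limma adjusted p = 0.000253). Of 20 tested effector and eicosanoid genes 9 rose and 8 fell, and without LPS replicate 1 only 4 fell.

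**Figure D2:**
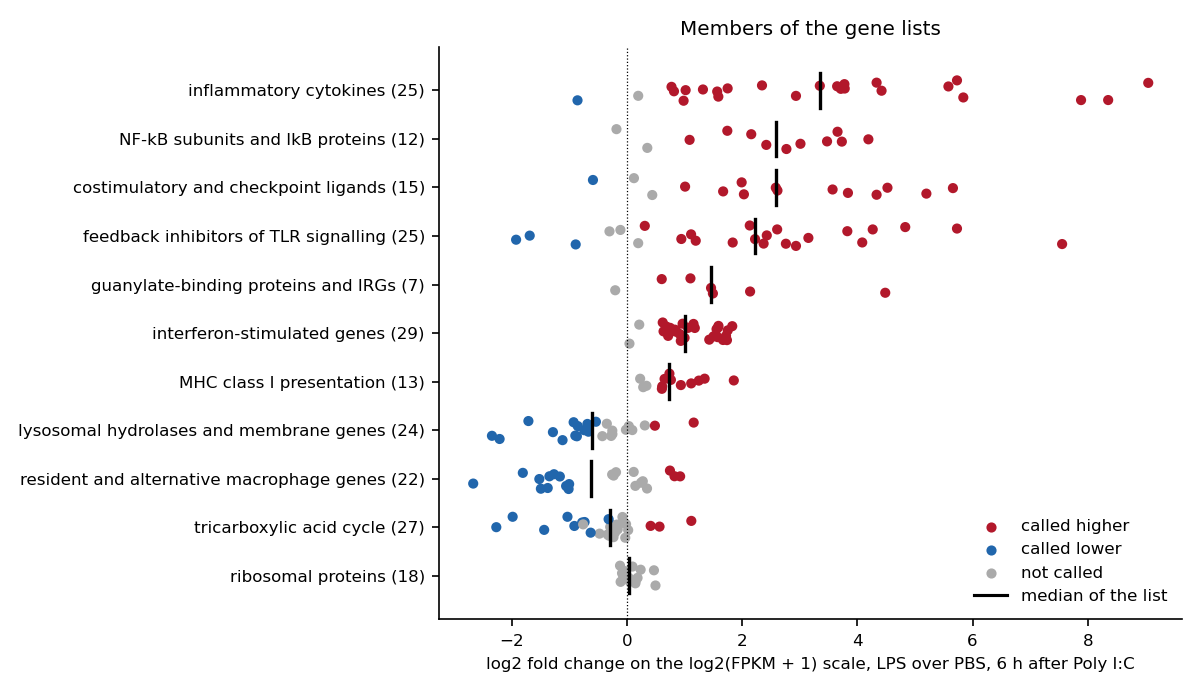
Log2 fold change (LPS libraries over PBS libraries, difference of log2(FPKM + 1)) of each tested member of 11 gene lists; points are genes and lines are list medians. Interferon-stimulated genes gather around their median of 1.00, inflammatory cytokines reach 9.05, and lysosomal genes lie mostly below 0 with a median of -0.60.

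Acute-phase and antimicrobial proteins rose in 14 of 21 tested members and fell in 1. Lcn2 (lipocalin 2), which withholds iron by binding bacterial siderophores, had 176 and 147 FPKM in the LPS libraries, against 1.09 and 0.511 FPKM in the PBS libraries (log2 fold change 6.51 ± 0.25, limma adjusted p = 7.48e-08). Saa3, a serum amyloid A protein made by mouse macrophages, had 6890.5 and 7084 FPKM in the LPS libraries, against 181 and 216 FPKM in the PBS libraries (log2 fold change 5.14 ± 0.44, limma adjusted p = 7.44e-06). Saa1 had 8.84 and 7.35 FPKM in the LPS libraries and was listed at 0 in both PBS libraries. S100a8 and Camp, which neutrophils also make, were higher too: S100a8 had 7.01 and 5.81 FPKM in the LPS libraries, against 0.851 and 0.257 FPKM in the PBS libraries (log2 fold change 2.28 ± 0.24, limma adjusted p = 3.49e-05). Camp had 1.32 and 1.39 FPKM in the LPS libraries and was listed at 0 in both PBS libraries. Neutrophil markers as a whole summed to 7.25 to 8.36 FPKM in the LPS libraries and 0.325 to 0.923 FPKM in the PBS libraries, and Elane, Ltf, Ly6g, Retnlg and S100a9 were at 0 in all 4. The member that fell was Cd5l (AIM), a lipid-binding protein secreted by tissue macrophages, with 9.55 and 8.18 FPKM in the LPS libraries, against 19.2 and 18.5 FPKM in the PBS libraries (log2 fold change -1.01 ± 0.20, limma adjusted p = 0.00187).

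Genes of matrix breakdown and fibrinolysis diverged, with 9 of 19 tested rising and 6 falling. Over all tested entries 21.7% were higher and 22.2% lower. Mmp13, a collagenase, had 441 and 417 FPKM in the LPS libraries, against 15.5 and 12.7 FPKM in the PBS libraries (log2 fold change 4.84 ± 0.18, limma adjusted p = 5.39e-08). Plat, the tissue plasminogen activator, had 24.6 and 25.6 FPKM in the LPS libraries, against 0.0660 and 0.274 FPKM in the PBS libraries (log2 fold change 4.49 ± 0.19, limma adjusted p = 9.43e-08). Plau, the urokinase activator, had 5.82 and 5.73 FPKM in the LPS libraries, against 26.9 and 23.5 FPKM in the PBS libraries (log2 fold change -1.95 ± 0.22, limma adjusted p = 5.52e-05). So of the 2 plasminogen activators, Plat was high and Plau low in the LPS libraries. The surface protease Adam8 had a log2 fold change of -1.75 ± 0.12. Stromal cells can also make several of these, and of 8 tested stromal and endothelial markers 2 rose, Dcn and Pdgfrb, and 0 fell. Pdgfrb had 2.13 and 2.19 FPKM in the LPS libraries, against 0.210 and 0.708 FPKM in the PBS libraries (log2 fold change 1.14 ± 0.21, limma adjusted p = 0.00136). Dcn had 9.61 and 8.28 FPKM in the LPS libraries, against 4.66 and 1.95 FPKM in the PBS libraries (log2 fold change 1.28 ± 0.27, limma adjusted p = 0.00304), or 0.811 without PBS replicate 2, while Col1a1 had 12.7 and 16.9 FPKM in the LPS libraries, against 6.37 and 15.5 FPKM in the PBS libraries (log2 fold change 0.51 ± 0.56, limma adjusted p = 0.499). Their part in these results was not tested.

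Surface molecules that engage T cells rose in 12 of 15 tested members. Cd40, the receptor for T cell help, had 1729 and 1612 FPKM in the LPS libraries, against 34.6 and 29.8 FPKM in the PBS libraries (log2 fold change 5.66 ± 0.15, limma adjusted p = 2.21e-08). Cd83, which stabilises surface MHC class II, had 175 and 165 FPKM in the LPS libraries, against 7.83 and 5.26 FPKM in the PBS libraries (log2 fold change 4.52 ± 0.21, limma adjusted p = 1.54e-07). Cd274 (PD-L1), the inhibitory ligand, had 629 and 531 FPKM in the LPS libraries, against 107 and 81.7 FPKM in the PBS libraries (log2 fold change 2.61 ± 0.15, limma adjusted p = 5.4e-07). The adhesion molecule Icam1 rose by 3.84 ± 0.15. The 2 classical CD28 ligands differed in their calls: Cd80 had 15.2 and 17.7 FPKM in the LPS libraries, against 8.31 and 7.01 FPKM in the PBS libraries (log2 fold change 1.01 ± 0.14, limma adjusted p = 0.000166). Cd86 had 156 and 146 FPKM in the LPS libraries, against 146 and 131 FPKM in the PBS libraries (log2 fold change 0.12 ± 0.17, limma adjusted p = 0.58). Whether these 2 genes differed from each other was not tested.

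Toll-like receptors moved in both directions, with 5 of 9 tested rising and 3 falling. Tlr2, the sensor of bacterial lipoproteins, had 284 and 265 FPKM in the LPS libraries, against 42.3 and 34.02 FPKM in the PBS libraries (log2 fold change 2.82 ± 0.15, limma adjusted p = 2.75e-07). Tlr3, the receptor of the priming ligand, had 47.2 and 41.5 FPKM in the LPS libraries, against 14.7 and 12.1 FPKM in the PBS libraries (log2 fold change 1.66 ± 0.15, limma adjusted p = 1.25e-05). Tlr4, the LPS receptor, had 9.72 and 7.33 FPKM in the LPS libraries, against 17.8 and 16.6 FPKM in the PBS libraries (log2 fold change -0.95 ± 0.23, limma adjusted p = 0.00799). Its call was lost without LPS replicate 2 (limma adjusted p = 0.0691). The log2 fold change was -2.17 ± 0.23 for Tlr13, which sees bacterial ribosomal RNA in mice, and -1.88 ± 0.20 for Tlr9, the CpG DNA receptor. Tlr2 and Tlr3 were thus high, and Tlr4, Tlr9 and Tlr13 low, in both LPS libraries. The LPS co-receptor Cd14 had 1212 and 1142 FPKM in the LPS libraries, against 69.4 and 87.7 FPKM in the PBS libraries (log2 fold change 3.90 ± 0.17, limma adjusted p = 1.16e-07). The adaptor Myd88 rose by 1.38 ± 0.14. Of 16 tested co-receptors, adaptors and kinases 11 rose.

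Receptors for other messengers changed in both directions. Adora2b, an adenosine receptor, had 80.1 and 79.4 FPKM in the LPS libraries, against 0.927 and 0.997 FPKM in the PBS libraries (log2 fold change 5.36 ± 0.22, limma adjusted p = 8.69e-08). Il15ra, which presents IL-15 to lymphocytes, had 173 and 154 FPKM in the LPS libraries, against 6.71 and 8.66 FPKM in the PBS libraries (log2 fold change 4.25 ± 0.28, limma adjusted p = 1.14e-06). Tnfrsf1b (TNFR2) rose by 2.07 ± 0.11, while Tnfrsf1a (TNFR1) had 79.7 and 77.98 FPKM in the LPS libraries, against 82.9 and 84.9 FPKM in the PBS libraries (log2 fold change -0.09 ± 0.13, limma adjusted p = 0.624). Csf1r, the receptor for the growth factor in the medium, was lower, with 112 and 129 FPKM in the LPS libraries, against 183 and 208 FPKM in the PBS libraries (log2 fold change -0.70 ± 0.11, limma adjusted p = 0.000654). Adora2b and Il15ra were at a few FPKM in the PBS libraries, whereas Csf1r was above 100 FPKM in all 4.

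Inflammasome and cell death genes rose in 13 of 18 tested members and fell in 2. Nlrp3, the sensor whose transcription is the priming step of its inflammasome, had 121 and 112 FPKM in the LPS libraries, against 10.4 and 9.78 FPKM in the PBS libraries (log2 fold change 3.41 ± 0.21, limma adjusted p = 8.69e-07). Casp4 (caspase 11), which binds cytosolic LPS, had 402 and 358 FPKM in the LPS libraries, against 55.6 and 46.9 FPKM in the PBS libraries (log2 fold change 2.87 ± 0.14, limma adjusted p = 2.11e-07). The pore-forming protein gene Gsdmd rose by 0.78 ± 0.17, and Ripk3, the kinase of necroptosis, had a log2 fold change of -0.62 ± 0.12. Aim2, the DNA sensor, had 52.9 and 51.96 FPKM in the LPS libraries, against 43.9 and 38.95 FPKM in the PBS libraries (log2 fold change 0.33 ± 0.16, limma adjusted p = 0.126), and passed when the libraries of 6 h were fitted alone (limma adjusted p = 0.0427). Among RNA and DNA sensors, Mavs, the mitochondrial adaptor of the RNA sensors, had 8.11 and 7.50 FPKM in the LPS libraries, against 14.6 and 18.7 FPKM in the PBS libraries (log2 fold change -0.99 ± 0.15, limma adjusted p = 0.000469), while its upstream sensors Ifih1 (MDA5) and Ddx58 (RIG-I) rose by 1.50 ± 0.17 and 1.00 ± 0.12.

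In glycolysis 7 of 18 tested genes rose and 3 fell, beside 21.7% higher and 22.2% lower over all tested entries, with a median of 0.11. Pfkfb3, which makes the activator of phosphofructokinase, had 195 and 143 FPKM in the LPS libraries, against 26.6 and 29.3 FPKM in the PBS libraries (log2 fold change 2.54 ± 0.17, limma adjusted p = 1.39e-06). Slc2a1 (GLUT1), the glucose importer, had 62.1 and 64.1 FPKM in the LPS libraries, against 20.6 and 22.1 FPKM in the PBS libraries (log2 fold change 1.52 ± 0.10, limma adjusted p = 1.21e-06). Pkm, the pyruvate kinase gene, had 281 and 282 FPKM in the LPS libraries, against 393 and 469.5 FPKM in the PBS libraries (log2 fold change -0.61 ± 0.14, limma adjusted p = 0.00491). Slc2a1 and Pfkfb3 were thus higher and Pkm lower in both LPS libraries. Ldha, which makes lactate, had 329 and 392 FPKM in the LPS libraries, against 337 and 357 FPKM in the PBS libraries (log2 fold change 0.05 ± 0.14, limma adjusted p = 0.803). Hk2, the inducible hexokinase, had 23.3 and 21.5 FPKM in the LPS libraries, against 16.3 and 17.01 FPKM in the PBS libraries (log2 fold change 0.40 ± 0.14, limma adjusted p = 0.0443). Its call was lost when any 1 of the 4 libraries was left out (limma adjusted p = 0.0917 to 0.199), with no filter on low values (limma adjusted p = 0.0659) or with no intensity trend (limma adjusted p = 0.0546). Hif1a, the hypoxia-inducible factor that also responds to LPS, had 73.5 and 65.6 FPKM in the LPS libraries, against 18.4 and 19.6 FPKM in the PBS libraries (log2 fold change 1.81 ± 0.16, limma adjusted p = 8.99e-06).

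In a list of citric acid cycle and related genes 3 of 27 tested rose and 9 fell. Over all tested entries 21.7% were higher and 22.2% lower. The list also holds genes outside the cycle itself, such as Acly, Slc25a1 and cytosolic enzymes. The isocitrate dehydrogenases that make NADPH were among those that fell: Idh1, the cytosolic form, had 3.78 and 3.93 FPKM in the LPS libraries, against 23.8 and 20.9 FPKM in the PBS libraries (log2 fold change -2.26 ± 0.15, limma adjusted p = 1.11e-06). Idh2, the mitochondrial form, had 2.52 and 3.47 FPKM in the LPS libraries, against 14.1 and 15.2 FPKM in the PBS libraries (log2 fold change -1.98 ± 0.17, limma adjusted p = 7.86e-06). Mdh1, the cytosolic malate dehydrogenase, had 35.5 and 32.8 FPKM in the LPS libraries, against 94.2 and 93.5 FPKM in the PBS libraries (log2 fold change -1.43 ± 0.12, limma adjusted p = 6.67e-06). All 3 were lower in both LPS libraries. Citrate synthase (Cs) had 45.6 and 47.5 FPKM in the LPS libraries, against 44.05 and 47.5 FPKM in the PBS libraries (log2 fold change 0.02 ± 0.09, limma adjusted p = 0.866). Sdha, a subunit of succinate dehydrogenase, had 51.5 and 55.8 FPKM in the LPS libraries, against 53.5 and 55.7 FPKM in the PBS libraries (log2 fold change -0.03 ± 0.10, limma adjusted p = 0.853). Of 26 tested nuclear genes of the respiratory chain, 2 rose and 2 fell, beside 21.7% higher and 22.2% lower over all tested entries. Neither direction kept a call without LPS replicate 1 or without PBS replicate 2, 1 of each was left without PBS replicate 1, and 0 rose without LPS replicate 2.

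Iron and redox genes also moved in both directions, with 10 of 22 tested rising and 8 falling. These counts, and those of cholesterol biosynthesis below, stand beside 21.7% higher and 22.2% lower over all tested entries. Sod2, the mitochondrial superoxide dismutase, had 362 and 358 FPKM in the LPS libraries, against 25.9 and 23.9 FPKM in the PBS libraries (log2 fold change 3.80 ± 0.12, limma adjusted p = 2.53e-08). Slc40a1 (ferroportin), the only known iron exporter, had 1.44 and 1.30 FPKM in the LPS libraries, against 7.43 and 6.94 FPKM in the PBS libraries (log2 fold change -1.79 ± 0.18, limma adjusted p = 2.38e-05). Hmox1 (haem oxygenase 1), which frees iron from haem, had 110.4 and 104 FPKM in the LPS libraries, against 276 and 301 FPKM in the PBS libraries (log2 fold change -1.42 ± 0.14, limma adjusted p = 2.29e-05). Sod2 was thus high, and ferroportin and haem oxygenase low, in both LPS libraries. The peroxide-degrading enzymes Gpx1 and Cat (catalase) had log2 fold changes of -1.61 ± 0.17 and -1.52 ± 0.16. In cholesterol biosynthesis 8 of 22 tested genes fell and 2 rose, but 5 fell without PBS replicate 2 or without LPS replicate 1, and 1 rose without either of those or PBS replicate 1. Dhcr7, the last enzyme of the pathway, had 0.532 and 0.595 FPKM in the LPS libraries, against 3.96 and 5.73 FPKM in the PBS libraries (log2 fold change -1.89 ± 0.22, limma adjusted p = 6.73e-05).

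The largest decreases included surface receptors, signalling proteins and enzymes. Cd300lb, an activating receptor of the CD300 family, had 0.651 and 0.777 FPKM in the LPS libraries, against 49.3 and 60.3 FPKM in the PBS libraries (log2 fold change -5.02 ± 0.20, limma adjusted p = 7.95e-08). Tmem37, a calcium channel gamma-like protein, had 0.258 and 1.04 FPKM in the LPS libraries, against 39.2 and 41.5 FPKM in the PBS libraries (log2 fold change -4.69 ± 0.23, limma adjusted p = 2.02e-07). Susd3, a sushi domain protein, had 0.356 and 0.551 FPKM in the LPS libraries, against 37.8 and 33.8 FPKM in the PBS libraries (log2 fold change -4.66 ± 0.17, limma adjusted p = 5.39e-08). These 3 genes stood near 1 FPKM or below in the LPS libraries and above 30 FPKM in the PBS libraries. Rgs2, which dampens Gq-coupled receptors, had 7.25 and 7.73 FPKM in the LPS libraries, against 110.4 and 161 FPKM in the PBS libraries (log2 fold change -3.99 ± 0.21, limma adjusted p = 2.94e-07). Tsc22d3 (GILZ), a glucocorticoid-induced anti-inflammatory protein, had 3.37 and 3.50 FPKM in the LPS libraries, against 58.7 and 57.7 FPKM in the PBS libraries (log2 fold change -3.74 ± 0.16, limma adjusted p = 9.23e-08). The rest of the 12 largest decreases beside Cxcr4 and Cebpa were Tmem86a (a lysoplasmalogenase, -4.31 ± 0.13), Arhgap19 (a GTPase-activating protein, -4.11 ± 0.22), Adssl1 (muscle-type adenylosuccinate synthase, -3.61 ± 0.14), Kcnk13 (a background potassium channel, -4.11 ± 0.12) and Metrnl (meteorin-like, a secreted protein, -3.60 ± 0.14). Kcnk13 and Metrnl have more than 1 entry in the table, so their level in a single entry is uncertain.

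Lineage transcription factors split, with 7 of 13 tested rising and 4 falling, beside 21.7% higher and 22.2% lower over all tested entries. Cebpa, the factor of myeloid differentiation, had 2.72 and 3.10 FPKM in the LPS libraries, against 89.7 and 72.2 FPKM in the PBS libraries (log2 fold change -4.38 ± 0.16, limma adjusted p = 5.39e-08). Its relative Cebpb, a factor of the acute inflammatory response, had 119 and 98.2 FPKM in the LPS libraries, against 35.1 and 31.8 FPKM in the PBS libraries (log2 fold change 1.66 ± 0.25, limma adjusted p = 0.0004). So Cebpa was low and Cebpb high in both LPS libraries. Pparg, the lipid-sensing nuclear receptor, had 0.614 and 0.888 FPKM in the LPS libraries, against 12.5 and 10.6 FPKM in the PBS libraries (log2 fold change -2.84 ± 0.17, limma adjusted p = 5.4e-07). Spi1 (PU.1), the master factor of the lineage, rose by 0.61 ± 0.11 on the log2 scale.

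Lysosomal genes fell in 13 of 24 tested members and rose in 2, with a median of -0.60. Tfeb, the transcription factor that drives lysosome formation, had 3.35 and 3.92 FPKM in the LPS libraries, against 21.3 and 23.6 FPKM in the PBS libraries (log2 fold change -2.34 ± 0.19, limma adjusted p = 5.33e-06). Lipa, the acid lipase, had 54.4 and 51.5 FPKM in the LPS libraries, against 251 and 245 FPKM in the PBS libraries (log2 fold change -2.21 ± 0.16, limma adjusted p = 2.61e-06). Npc1, which exports cholesterol from lysosomes, had 16.9 and 15.2 FPKM in the LPS libraries, against 53.1 and 56.1 FPKM in the PBS libraries (log2 fold change -1.71 ± 0.15, limma adjusted p = 7.97e-06). Each was lower in both LPS libraries than in either PBS library. Ctsb (cathepsin B) had 2157 and 2086 FPKM in the LPS libraries, against 2756 and 2639.7 FPKM in the PBS libraries (log2 fold change -0.35 ± 0.14, limma adjusted p = 0.0734), and passed without an intensity trend (limma adjusted p = 0.0389) or with the 4 libraries fitted alone (limma adjusted p = 0.0326). Mitf, a factor related to Tfeb, was 1 of the members that rose, by 1.16 ± 0.15.

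Genes of resident and alternatively activated macrophages fell in 11 of 22 tested members and rose in 3 (median -0.63). Gas6, the bridging ligand for uptake of dying cells, had 4.64 and 5.57 FPKM in the LPS libraries, against 34.5 and 40.97 FPKM in the PBS libraries (log2 fold change -2.66 ± 0.14, limma adjusted p = 2.94e-07). Trem2, a lipid receptor of phagocytes, had 122 and 149 FPKM in the LPS libraries, against 365 and 399 FPKM in the PBS libraries (log2 fold change -1.49 ± 0.19, limma adjusted p = 9.94e-05). Axl, a receptor of Gas6, had 91.9 and 98.2 FPKM in the LPS libraries, against 54.7 and 57.6 FPKM in the PBS libraries (log2 fold change 0.75 ± 0.11, limma adjusted p = 0.00041). Both LPS libraries were thus lower in Gas6 and Trem2 and higher in Axl. Mrc1, the mannose receptor, had 3.68 and 3.61 FPKM in the LPS libraries, against 2.87 and 2.43 FPKM in the PBS libraries (log2 fold change 0.35 ± 0.15, limma adjusted p = 0.0921). Among Fc gamma receptors, which bind IgG, the inhibitory Fcgr2b had 372 and 348 FPKM in the LPS libraries, against 109.7 and 96.1 FPKM in the PBS libraries (log2 fold change 1.80 ± 0.12, limma adjusted p = 1.44e-06). The activating Fcgr3 had 38.6 and 36.5 FPKM in the LPS libraries, against 76.4 and 84.6 FPKM in the PBS libraries (log2 fold change -1.08 ± 0.14, limma adjusted p = 0.000148).

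Of 24 tested cell cycle genes 3 rose and 6 fell, beside 21.7% higher and 22.2% lower over all tested entries. Among the D cyclins, which link growth signals to the cycle, Ccnd1 (cyclin D1) had 2.56 and 2.07 FPKM in the LPS libraries, against 16.8 and 23.6 FPKM in the PBS libraries (log2 fold change -2.66 ± 0.24, limma adjusted p = 9.93e-06). Ccnd2 (cyclin D2) had 97.3 and 78.6 FPKM in the LPS libraries, against 9.37 and 8.90 FPKM in the PBS libraries (log2 fold change 3.13 ± 0.15, limma adjusted p = 1.63e-07). Ccnd3 (cyclin D3) had 7.26 and 7.26 FPKM in the LPS libraries, against 9.18 and 15.1 FPKM in the PBS libraries (log2 fold change -0.63 ± 0.20, limma adjusted p = 0.0252). It no longer passed without PBS replicate 2 (-0.302, limma adjusted p = 0.208), LPS replicate 1 (limma adjusted p = 0.0975) or LPS replicate 2 (limma adjusted p = 0.0915). Pcna, the sliding clamp of DNA replication, had 51.8 and 51.2 FPKM in the LPS libraries, against 105 and 107 FPKM in the PBS libraries (log2 fold change -1.03 ± 0.10, limma adjusted p = 2.09e-05). Cyclin D1 and Pcna were therefore lower, and cyclin D2 higher, in both LPS libraries. Of 18 tested ribosomal protein genes of 27 listed, limma called 0, against 2 higher and 0 lower at an unadjusted p under 0.05, and their median was 0.04.

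The LPS effect in Poly I:C-primed cells was then set against the same effect 2 h after LPS, which has its own PBS libraries. At 2 h, 2725 entries (22.8%) were called, 1681 of them higher and 1044 lower with LPS. Of the entries called higher at 6 h, 1256 were also called higher at 2 h, while 1319 were not called there. Of those called lower at 6 h, 522 were also lower and 2094 not called at 2 h, and 20 and 44 had opposite calls. The difference between the 6 h and 2 h effects passed the test for 1077 entries with a more positive effect at 6 h (8.99%) and 1480 with a more negative one (12.4%). Without 1 library the first count ranged over 611 to 943 and the second over 969 to 1331: it was 611 and 969 without replicate 1 of the 6 h LPS libraries, 711 and 986 without replicate 2 of the 2 h PBS libraries, and 714 higher without replicate 1 of the 2 h LPS libraries. Among the entries with a more negative effect at 6 h, 1061 were lower at 6 h and not called at 2 h.

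Lcn2 had the largest gain of effect from 2 h to 6 h among the named protein-coding genes. It had 176 and 147 FPKM in the LPS libraries and 1.09 and 0.511 FPKM in the PBS libraries at 6 h, and 2.98 and 3.74 FPKM with LPS and 0.331 and 0.528 FPKM with PBS at 2 h. The difference of the 2 effects was 4.90 ± 0.36 (limma adjusted p = 3.05e-05) on the log2 scale. Nos2 differed in its PBS level as well: it had 299 and 234 FPKM with LPS and 5.46 and 4.23 FPKM with PBS at 6 h, and 111 and 126 FPKM with LPS and 56.4 and 53.4 FPKM with PBS at 2 h, a difference of 4.42 ± 0.42 (limma adjusted p = 0.000111). So Lcn2 was at a few FPKM or less in all 2 h libraries, whereas Nos2 was above 50 FPKM in both 2 h PBS libraries. Il1b had 2824 and 2533 FPKM with LPS and 4.99 and 3.28 FPKM with PBS at 6 h, and 2197 and 2506 FPKM with LPS and 38.5 and 14.7 FPKM with PBS at 2 h, a difference of 2.48 ± 0.50 (limma adjusted p = 0.00637). Both LPS libraries of 6 h were above both of 2 h, and both PBS libraries of 6 h were below both of 2 h. Cxcl10 also had its lower PBS level at 6 h: it had 1859 and 1850.1 FPKM with LPS and 183 and 137 FPKM with PBS at 6 h, and 2306 and 2312 FPKM with LPS and 1336 and 1034 FPKM with PBS at 2 h, a difference of 2.57 ± 0.29 (limma adjusted p = 0.000263). St3gal3, a sialyltransferase, had 92.8 and 91.1 FPKM with LPS and 2.87 and 1.89 FPKM with PBS at 6 h, and 6.91 and 5.49 FPKM with LPS and 4.70 and 4.91 FPKM with PBS at 2 h, a difference of 4.49 ± 0.26 (limma adjusted p = 1.37e-05).

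Of 25 tested inflammatory cytokines, 11 had a more positive effect at 6 h and 4 a more negative one, and the first count was 7 without replicate 1 of the 2 h PBS libraries or without either 2 h LPS library. Over all tested entries the shares were 8.99% more positive and 12.4% more negative. Tnf was in neither set of cytokines. It had 986 and 916 FPKM with LPS and 53.8 and 35.02 FPKM with PBS at 6 h, and 5647 and 6065 FPKM with LPS and 285 and 71.5 FPKM with PBS at 2 h. The LPS libraries at 2 h were the highest, and the 2 PBS libraries of 2 h lay far apart. The difference of effects was -0.93 ± 0.67 (limma adjusted p = 0.372), which did not pass, but without replicate 1 of the 2 h PBS libraries it was -1.916 and did. Cxcl1 had 149 and 136 FPKM with LPS and 0.910 and 0.241 FPKM with PBS at 6 h, and 405 and 478 FPKM with LPS and 1.46 and 0.0775 FPKM with PBS at 2 h. Its effect was smaller at 6 h, with a difference of -1.54 ± 0.47 (limma adjusted p = 0.0418), a call kept without replicate 1 of the 2 h PBS libraries or replicate 2 of the 6 h PBS libraries and lost without any 1 of the other 6 (limma adjusted p = 0.0784 to 0.125). Without replicate 2 of the 2 h PBS libraries the difference was -0.945. The call was also lost with a pseudocount of 0.1 (limma adjusted p = 0.311), with no filter on low values (limma adjusted p = 0.119) and with the 8 libraries fitted alone (limma adjusted p = 0.0649). Areg (amphiregulin), a ligand of the EGF receptor, had 0.143 and 0.0997 FPKM with LPS and 0 FPKM in both PBS libraries at 6 h, and 14.8 and 16.7 FPKM with LPS and 0.187 and 0.0592 FPKM with PBS at 2 h, a difference of -3.74 ± 0.23 (limma adjusted p = 1.54e-05). Amphiregulin was thus detected above 1 FPKM in the 2 h LPS libraries alone among these 8.

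Among the genes with a more negative effect at 6 h, Rgs2 and Susd3 were not called at 2 h. Rgs2 had 7.25 and 7.73 FPKM with LPS and 110.4 and 161 FPKM with PBS at 6 h, and 61.98 and 56.8 FPKM with LPS and 47.9 and 59.8 FPKM with PBS at 2 h, a difference of -4.13 ± 0.30 (limma adjusted p = 3.05e-05). Susd3 had 0.356 and 0.551 FPKM with LPS and 37.8 and 33.8 FPKM with PBS at 6 h, and 13.98 and 12.5 FPKM with LPS and 16.2 and 21.9 FPKM with PBS at 2 h, a difference of -4.18 ± 0.24 (limma adjusted p = 1.34e-05). In both genes the 6 h LPS libraries were the lowest and the 6 h PBS libraries the highest of the 8. Cebpa had already fallen at 2 h: it had 2.72 and 3.10 FPKM with LPS and 89.7 and 72.2 FPKM with PBS at 6 h, and 8.44 and 9.19 FPKM with LPS and 43.7 and 52.4 FPKM with PBS at 2 h, a difference of -2.07 ± 0.22 (limma adjusted p = 0.000224). By list, the effect was more positive at 6 h for 15 of 29 tested interferon-stimulated genes (median difference 0.84, 12 to 14 without 1 library) and for 6 of 12 NF-kB genes (4 to 6 without 1 library). It was more negative for 13 of 24 lysosomal genes (median -0.68) and 13 of 22 resident macrophage genes (median -0.87), beside a median of -0.049 over all tested entries. Of all tested entries 8.99% had a more positive and 12.4% a more negative effect at 6 h. The lysosomal count was 8 without replicate 2 of the 2 h PBS libraries or replicate 1 of the 6 h LPS libraries. The resident gene count was 7 without replicate 1 of the 2 h LPS libraries, and 8 without its replicate 2, without replicate 1 of the PBS libraries of 2 h or of 6 h, or without replicate 2 of the 6 h LPS libraries.

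**Figure D3:**
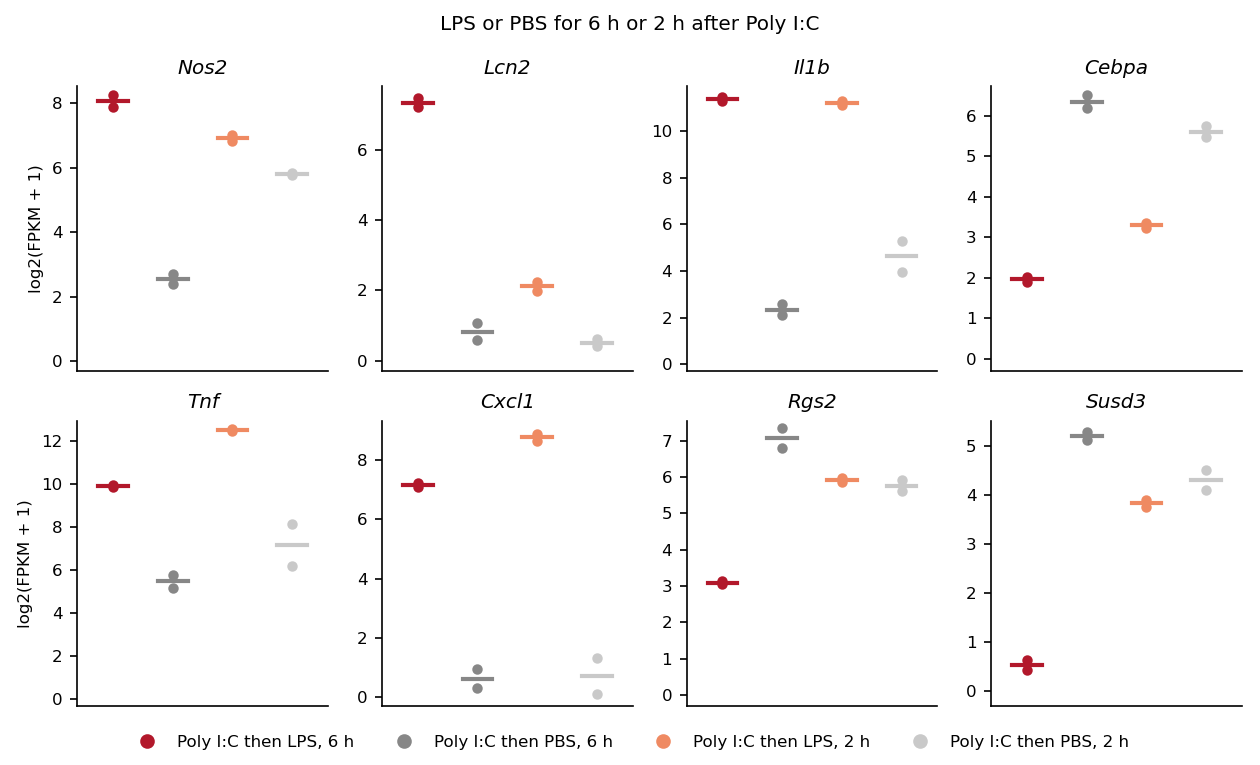
Level, as log2(FPKM + 1), of Nos2, Lcn2, Il1b, Cebpa, Tnf, Cxcl1, Rgs2 and Susd3 in Poly I:C-primed macrophages 6 h and 2 h after LPS or PBS; each point is 1 library, each bar is a group mean and each group has 2 libraries. Lcn2 is at 176.0 and 147.2 FPKM in the 6 h LPS libraries and at 2.98 and 3.74 FPKM in the 2 h LPS libraries, while Rgs2 is at 7.25 and 7.73 FPKM in the 6 h LPS libraries and at 61.98 and 56.8 FPKM in the 2 h LPS libraries.

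The second contrast of effects was between primed and unprimed cells at 6 h, in which LPS after PBS (n = 2) was set against PBS after PBS (n = 1). That single library enters with the spread of the other groups, so it is assumed to vary like them. The macrophage markers summed to 15664 and 16820 FPKM with LPS and 17257 FPKM with PBS after PBS. After Poly I:C they summed to 5854 to 5942 FPKM with LPS and 5983 to 6262 FPKM with PBS. Whether this difference in marker levels bears on the contrast was not tested. In unprimed cells LPS was followed by 2738 higher (22.9%) and 2464 lower entries (20.6%). The 2 comparisons share no library, and 1527 entries were called higher and 1168 lower in both, while 125 were higher in primed and lower in unprimed cells and 216 the reverse. The LPS effect was more positive in primed cells for 1524 entries (12.7%) and more negative for 2001 (16.7%), with a median difference of -0.071. Among the more negative ones, 493 were called higher in both kinds of cell.

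Neutrophil chemokines had the larger effect in primed cells. Cxcl1 had 149 and 136 FPKM with LPS and 0.910 and 0.241 FPKM with PBS after Poly I:C, and 1.12 and 0.712 FPKM with LPS and 0.135 FPKM with PBS after PBS. The difference of the effects was 5.79 ± 0.53 (limma adjusted p = 3.41e-05). Cxcl2 had 1053 and 1039 FPKM with LPS and 9.80 and 2.43 FPKM with PBS after Poly I:C, and 30.9 and 28.7 FPKM with LPS and 6.81 FPKM with PBS after PBS, a difference of 5.45 ± 1.13 (limma adjusted p = 0.00515). For both, the primed LPS libraries were far above all others, including the unprimed LPS libraries. Il6 had 389.9 and 378 FPKM with LPS and 0.390 and 0 FPKM with PBS after Poly I:C, and 28.1 and 35.4 FPKM with LPS and 0.0773 FPKM with PBS after PBS, a difference of 3.44 ± 0.73 (limma adjusted p = 0.00579) that did not pass with a pseudocount of 0.1 (3.282, limma adjusted p = 0.0678). Ptgs2 had 876 and 728 FPKM with LPS and 2.90 and 2.36 FPKM with PBS after Poly I:C, and 24.3 and 27.3 FPKM with LPS and 0.397 FPKM with PBS after PBS, a difference of 3.53 ± 0.56 (limma adjusted p = 0.00112). Rcl1, a factor of ribosomal RNA processing, had 152 and 152 FPKM with LPS and 4.26 and 5.26 FPKM with PBS after Poly I:C, and 5.03 and 6.58 FPKM with LPS and 6.07 FPKM with PBS after PBS, a difference of 4.80 ± 0.42 (limma adjusted p = 2.7e-05). Rcl1 was thus high in the primed LPS libraries alone.

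Il1b, in contrast, had 2824 and 2533 FPKM with LPS and 4.99 and 3.28 FPKM with PBS after Poly I:C, and 656 and 584 FPKM with LPS and 0.330 FPKM with PBS after PBS. Its levels were higher after Poly I:C with either second stimulus, and the difference of effects was 0.18 ± 0.56 (limma adjusted p = 0.84), which did not pass. A difference that misses the threshold does not show equal effects.

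Ccl5, Rsad2, Irg1 and Nos2 showed the smaller effect in primed cells, and each had a higher PBS level after Poly I:C. Ccl5 had 26675 and 25422 FPKM with LPS and 16665 and 18263 FPKM with PBS after Poly I:C, and 9700.3 and 11745 FPKM with LPS and 6.21 FPKM with PBS after PBS, a difference of -9.95 ± 0.40 (limma adjusted p = 3.5e-07). Rsad2 had 1149 and 977 FPKM with LPS and 341 and 289 FPKM with PBS after Poly I:C, and 3589 and 4116 FPKM with LPS and 5.58 FPKM with PBS after PBS, a difference of -7.44 ± 0.24 (limma adjusted p = 8.88e-08). Ccl5 was thus highest in the primed LPS libraries, while Rsad2 was highest in the unprimed LPS libraries. Irg1 had 1435 and 1303 FPKM with LPS and 164 and 131 FPKM with PBS after Poly I:C, and 1839.7 and 2044 FPKM with LPS and 2.95 FPKM with PBS after PBS, a difference of -5.73 ± 0.28 (limma adjusted p = 8.27e-07). Nos2 had 299 and 234 FPKM with LPS and 5.46 and 4.23 FPKM with PBS after Poly I:C, and 213 and 279 FPKM with LPS and 0.0178 FPKM with PBS after PBS, a difference of -2.40 ± 0.46 (limma adjusted p = 0.00352). With LPS, Nos2 overlapped between primed and unprimed cells. Of 29 tested interferon-stimulated genes 29 had the more negative effect in primed cells (median difference -4.26), as did 13 of 13 class I genes (median -2.23). The share over all tested entries was 16.7%.

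**Figure D4:**
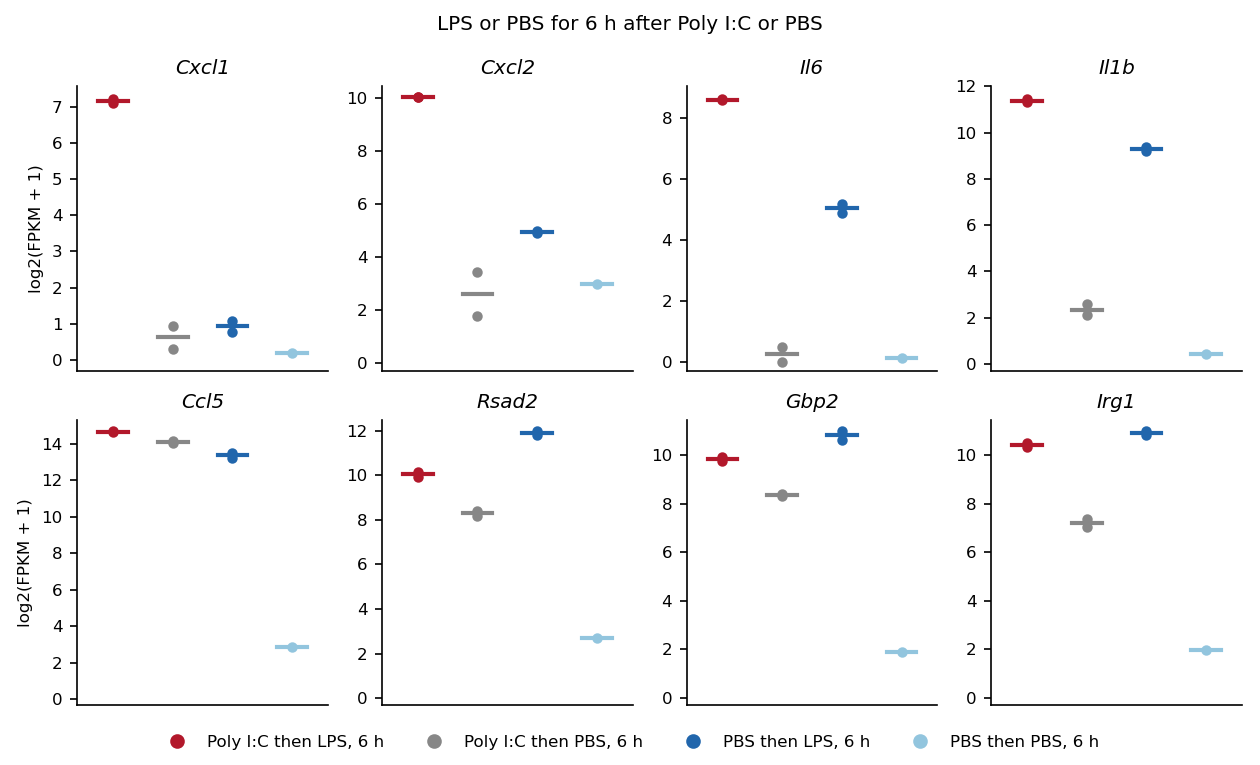
Level, as log2(FPKM + 1), of Cxcl1, Cxcl2, Il6, Il1b, Ccl5, Rsad2, Gbp2 and Irg1 at 6 h in cells given Poly I:C or PBS first and LPS or PBS second; each point is 1 library and each bar a group mean. Cxcl1 reaches 148.5 and 136.1 FPKM with LPS after Poly I:C and 1.12 and 0.712 FPKM with LPS after PBS, while Rsad2 is at 1149 and 976.8 FPKM with LPS after Poly I:C and at 3589 and 4116 FPKM with LPS after PBS.

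Growth and sterol genes differed between primed and unprimed cells as groups. The effect was more positive in primed cells for 21 of 23 tested ribosome biogenesis genes (median difference 1.23), 16 of 22 cholesterol biosynthesis genes (median 1.40) and 14 of 24 cell cycle genes (median 1.17). The share over all tested entries was 12.7%, with a median difference of -0.071. With LPS, 1 ribosome biogenesis gene was lower in primed cells (0 without LPS replicate 1 after Poly I:C), against 20 in unprimed cells. For cholesterol biosynthesis 8 were lower in primed cells (5 without PBS replicate 2 or LPS replicate 1 after Poly I:C), against 20 in unprimed cells. For the cell cycle 6 were lower in primed cells, against 17 in unprimed cells. Over all tested entries 22.2% were lower with LPS in primed cells and 20.6% in unprimed cells.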

How the data were processed

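Polyadenylated RNA was sequenced as paired 76 bp reads from stranded libraries, per the labels' protocols. The submitters' processing notes name TopHat2, Cufflinks and Cuffnorm, without options, and genome build mm9; however, of 33853 entries that name 1 gene of GENCODE M21, 33803 overlap the GRCm38 gene of that name and 13325 share its start and end, and GRCm38 coordinates are therefore used. The authors deposited 1 table of FPKM values, which already divide by transcript length and library size and carry Cuffnorm's scaling between libraries, with 39721 entries (1859 without a name, 1066 naming several genes) and 14 libraries. It holds no counts, so sequencing depth cannot be stated and intervals for counting error are not given; the value of 1 fragment, read from the spacing of low values, spans 3.08-fold over all libraries and 1.43-fold in the 4 compared. 0 columns were left unmapped.

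Named entries with an FPKM of 1 or more in 2 or more libraries (11977) were tested on log2(FPKM + 1) with limma 3.58.1 in R 4.3.3, with an intensity trend, in 1 model of 14 libraries in 8 groups (6 residual degrees of freedom), and Benjamini-Hochberg adjustment over all tested entries at 0.05. Differences between LPS effects were contrasts of that model. The test was checked on simulated data with independent normal noise of the fitted spread and with changes placed in well-expressed entries alone. That check does not speak to weakly expressed entries or to departures from such noise. Tables were handled in Python 3.11.15 with numpy 2.4.6 and pandas 2.3.3 and drawn with matplotlib 3.10.9. Alternatives changed the pseudocount, filter, scaling, trend, libraries fitted and replicate block. Each library of the compared groups that hold 2 libraries was also left out in turn. The single library of PBS after PBS at 6 h could not be left out.

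Members and gene lists were chosen with earlier results of these data known, and list counts are descriptions. Named genes are 21 fixed genes; the 12 largest called increases and decreases among entries naming 1 gene with a mean of at least 5 FPKM in either group and groups that do not overlap; up to 4 called members of each list with the largest change; and, for differences between effects, the 6 most positive and 6 most negative called entries with a mean of at least 5 FPKM in any group. Further list members were named after their values were seen, to say what a count is made of. Some genes are not reported here.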

Additional observations from a re-analysis of the deposited data

Results flagged for a closer look

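The LPS effect in Poly I:C-primed macrophages differed between 6 h and 2 h by the test of the difference, which was more positive at 6 h for 1077 entries and more negative for 1480. The values that follow are differences of log2 fold change. More positive at 6 h were Lcn2 (4.90), St3gal3 (4.49), Nos2 (4.42), Cxcl10 (2.57), Socs3 (2.56), Il1b (2.48), Ptgs2 (2.07), Irg1 (1.46), Tlr3 (1.31) and Il12b (1.18). More negative were Susd3 (-4.18), Rgs2 (-4.13), Areg (-3.74), Kcnk13 (-3.61), Metrnl (-3.60), Cxcl1 (-1.54) and Cx3cr1 (-1.16). Cx3cr1 had 0.0250 and 0.0522 FPKM with LPS and 1.34 and 1.30 FPKM with PBS at 6 h, and 0.177 and 0.147 FPKM with LPS and 0.201 and 0.123 FPKM with PBS at 2 h, all near the lower end of the scale. Several of these calls were lost when 1 library was left out. Where the call was lost, the difference itself was -1.21 to -1.113 for Cx3cr1 and 0.967 to 1.34 for Il12b. Cx3cr1 lost its call without any 1 of the 8 libraries (limma adjusted p = 0.0685 to 0.0914), and Il12b without any 1 of them but replicate 2 of the 6 h PBS libraries (limma adjusted p = 0.0598 to 0.136). Socs3 lost it without any 1 of the 2 h LPS, 6 h PBS or 6 h LPS libraries (limma adjusted p = 0.0723 to 0.108), and without replicate 1 of the 2 h PBS libraries its difference was 1.428. Ptgs2 lost it without replicate 2 of the 2 h LPS libraries (limma adjusted p = 0.0517), replicate 2 of the 6 h PBS libraries (limma adjusted p = 0.057) or replicate 1 of the 6 h LPS libraries (limma adjusted p = 0.0629), and without replicate 1 of the 2 h PBS libraries its difference was 1.355. Cxcl1 lost it without 6 of the 8 (limma adjusted p = 0.0784 to 0.125), and without replicate 2 of the 2 h PBS libraries its difference was -0.945. With no filter on low values all 5 lost it: Cx3cr1 (limma adjusted p = 0.0786), Il12b (0.106), Socs3 (0.114), Ptgs2 (0.0607) and Cxcl1 (0.119). A pseudocount of 0.1 ended the call of Il12b (limma adjusted p = 0.117) and Cxcl1 (limma adjusted p = 0.311), and fitting the 8 libraries alone that of Socs3 (limma adjusted p = 0.0622) and Cxcl1 (limma adjusted p = 0.0649).

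Short RNA entries were flagged by the same test: Gm25541 (6.98), Gm23100 (5.70), mmu-mir-1957b (4.28) and Gm25534 (-5.49). Each was listed at 0 in both libraries of at least 1 of the 4 groups, and libraries made from polyadenylated RNA are not designed to capture such RNAs. Gm23100 lost its call without any 1 library but replicate 1 of the 6 h PBS libraries (limma adjusted p = 0.0531 to 0.106), and mmu-mir-1957b without replicate 1 of the 6 h LPS libraries (limma adjusted p = 0.0518). Both lost it with no filter on low values (limma adjusted p = 0.101 for Gm23100 and 0.0619 for mmu-mir-1957b).

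The LPS effect at 6 h differed between Poly I:C-primed and PBS-primed cells for 1524 entries with a more positive and 2001 with a more negative effect in primed cells. More positive were Cxcl1 (5.79), Cxcl2 (5.45), Cxcl3 (5.32), Rcl1 (4.80), Prkar2b (4.43), Ptgs2 (3.53) and Il6 (3.44). More negative were Ccl5 (-9.95), Rsad2 (-7.44), Gbp2 (-7.43), Ms4a4c (-7.43), Cmpk2 (-7.04), AW112010 (-6.91), Cxcl10 (-6.17), Isg15 (-5.75), Irg1 (-5.73), Tlr3 (-3.14) and Nos2 (-2.40). Prkar2b, a regulatory subunit of protein kinase A, had 44.1 and 44.6 FPKM with LPS and 5.41 and 3.54 FPKM with PBS after Poly I:C, and 3.55 and 3.48 FPKM with LPS and 10.6 FPKM with PBS after PBS. The mitochondrial tRNA entry mt-Ty (13.002) rests on single libraries: it had 0 and 388.4 FPKM with LPS and 0 FPKM in both PBS libraries after Poly I:C, and 0 FPKM in both LPS libraries and 414.7 FPKM in the PBS library after PBS.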

How the results depend on the processing

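The counts for LPS against PBS after Poly I:C at 6 h stayed within 1.5 times of 2595 and 2660 under every alternative run, with 1913 to 2356 higher and 1874 to 2364 lower entries when 1 library was left out. For the difference between 6 h and 2 h (1077 and 1480) leaving out 1 library gave 611 to 943 and 969 to 1331, and for the difference between primed and unprimed cells (1524 and 2001) it gave 1124 to 1373 and 1549 to 1854. Among 268 genes named for the main comparison and 13 alternatives, 3404 of 3477 values kept their direction and side of the threshold, 61 lost and 12 gained the call, and 0 reversed. For the difference between times 453 of 512 values did so, with 50 lost and 9 gained, and for the difference between primed and unprimed cells 441 of 448, with 1 lost, 5 gained and 1 reversed: Cx3cr1 at a pseudocount of 0.1 (-1.937, limma adjusted p = 0.0145, against 0.224); the cause was not tested. Many of the genes named for the main comparison were chosen for the largest called changes, which favours calls that hold. These counts therefore do not describe called entries with smaller changes. Replicate numbers are shared between groups, but the labels do not say whether they pair the samples. Deviations of same-numbered libraries from their group means correlated at -0.19 to 0.0778 over 15 pairs of groups (0.0142 for those compared). With 2 libraries a group these values cannot decide whether same-numbered libraries share an origin. With the replicate block the counts were 2485 and 2536 for the main comparison, 929 and 1322 for the difference between times and 1413 and 1860 for that between primed and unprimed cells; Il12b then lost its call for the difference between times (limma adjusted p = 0.057). FPKM without counts limits the precision of weakly expressed genes, and 2 libraries a group, or 1 for PBS after PBS, limit all comparisons. That single library could not be left out, so the ranges for primed against unprimed cells do not cover its loss.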
